A study of Nicotiana with 12 samples.

Results

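The genes described here handle 2 linked uses of nitrogen in the leaf, the taking up of ammonium into glutamine and the making of polyamines from arginine or ornithine. They were chosen by gene symbol, as all probe sets annotated GS2, AMT1-2, ADC, adc1 or ODC. This gave 8 probe sets of 5 genes, out of 802 gene symbols on the array and 10101 probe sets tested, of which 909 had a symbol. GS2, AMT1-2, ADC and ODC had 1 probe set each and adc1 had 4.

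Leaf RNA of Nicotiana plants was measured on the Affymetrix Tomato Genome Array in 4 groups of 3 biological replicates, 1 array each. Wild-type (WT) plants and plants carrying the transgene PSARK::IPT (called IPT here) were given 1000 mL (watered) or 300 mL (stressed) of water daily in each pot. The plants had been moved to a greenhouse at 3 weeks of age, the water regimes lasted 45 days, and leaves were taken at about 10 weeks. IPT codes for isopentenyltransferase, an enzyme of cytokinin synthesis, and the SARK promoter comes from a senescence-associated receptor kinase gene, so the transgene is tied to ageing or stressed tissue. The labels do not give the species or cultivar, the number of transformed lines, or whether leaves of several plants were pooled. No named probe set measured the transgene, so its level was not a check of the labels. Tomato probes read tobacco RNA, so signals were compared between groups within a probe set and not from 1 probe set to another.

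Ammonium enters plant cells through AMT transporters, and more of it arises inside the leaf from photorespiration. In the chloroplast, glutamine synthetase joins ammonium to glutamate to give glutamine, from which other amino acids, arginine among them, receive their nitrogen. Polyamines begin with putrescine, made either from arginine by arginine decarboxylase or from ornithine by ornithine decarboxylase, and plants often change these enzymes under drought, salt and other stresses.

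The medians of the 12 arrays ranged from 3.38 to 3.45 (log2). Correlations of replicate arrays ran from 0.982 to 0.992. The 7 leaf photosynthesis markers found on the array (CAB4, CAB5, CAB6A, PSBO, PSBP, PsbQ and PSBR) stood between 5.77 and 13.03 on all arrays, above the array medians. The poly-A controls, bacterial transcripts added before labelling, set the arrays apart by group. Their 3' minus 5' log2 difference, larger where labelling stops earlier along a transcript, was 2.22 ± 0.08 (SD, n = 3) in WT with full water and 4.50 ± 0.84 under stress. In IPT it was 2.85 ± 0.43 and 3.68 ± 0.11, in the same order. The array of stressed WT replicate 2 had the largest, 5.45. The groups did not overlap in this difference, which ended at 2.32 in watered WT and began at 3.87 in stressed WT. A fit with it as a covariate can thus hardly tell labelling and group apart, and its errors for stress in WT were larger. The mean log2 level of these controls was 9.82 in watered WT, against 7.76 in stressed WT, 8.03 in watered IPT and 8.28 under stress in IPT. Watered WT thus stood apart, which touches each comparison that uses it, and the part of this level in their results was not tested. A probe set is said to have passed, risen, fallen or been higher or lower where its limma adjusted p, over all 10101 probe sets, was under 0.05.

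**Figure D1:**
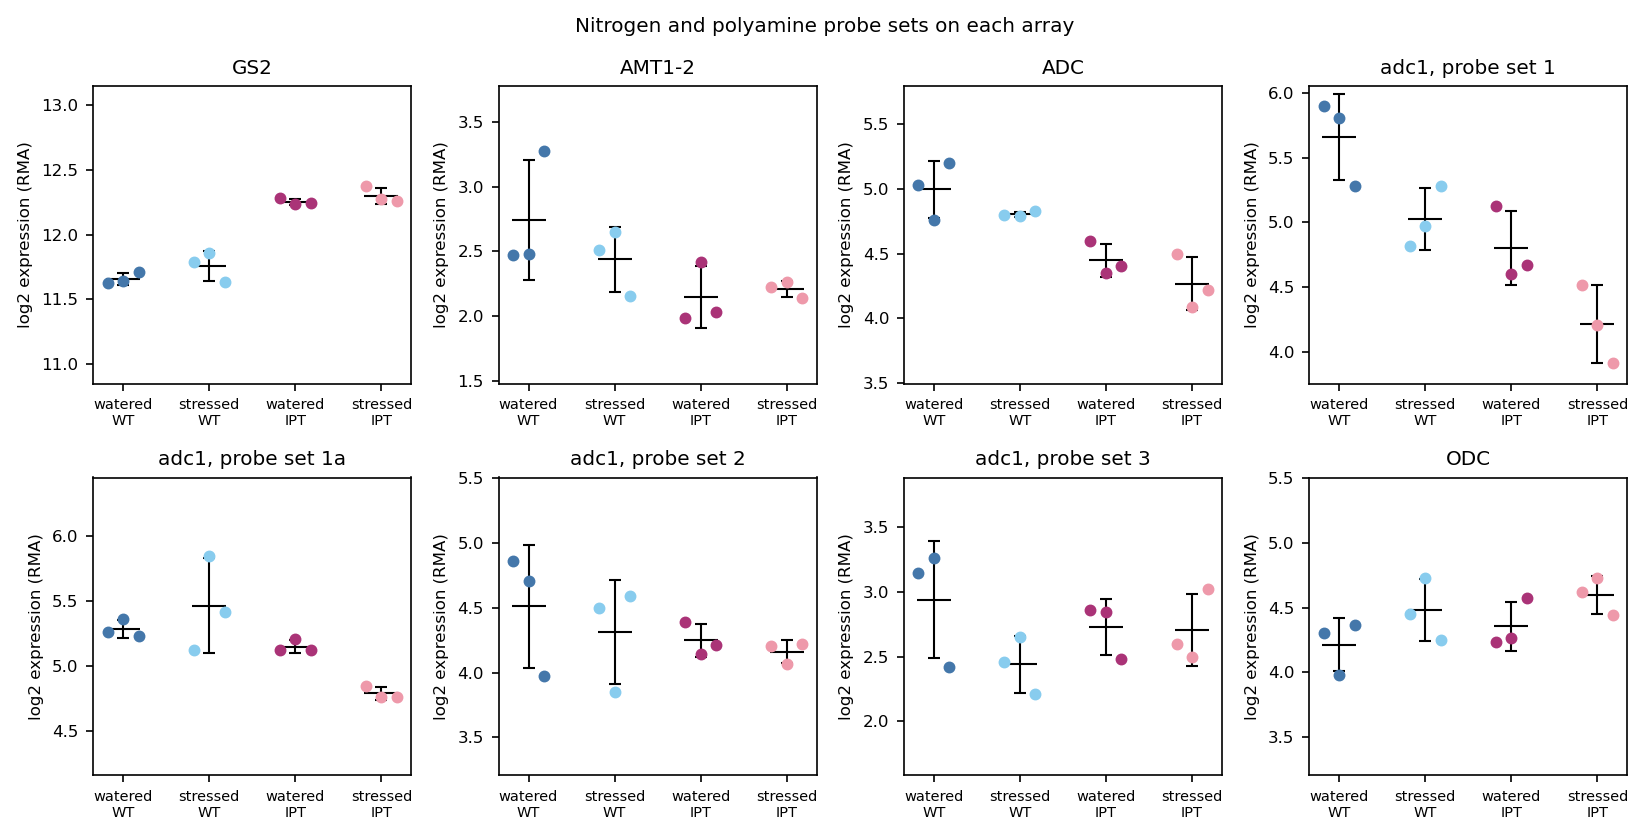
Each panel plots 1 probe set, with log2 expression (RMA) on the vertical axis over an equal span and the 4 groups on the horizontal axis. Coloured points are arrays in replicate order, and the black bar and whiskers are the group mean and SD of 3 arrays; GS2 lies between 11.63 and 11.86 on the WT arrays and between 12.24 and 12.37 on the IPT arrays.

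GS2, the chloroplast glutamine synthetase that captures ammonium released by photorespiration, was higher in IPT leaves under both water supplies. Its log2 values were 11.63, 11.64 and 11.71 in watered WT and 11.79, 11.86 and 11.63 in stressed WT. They were 12.28, 12.24 and 12.24 in watered IPT and 12.37, 12.27 and 12.26 in stressed IPT. All 6 IPT arrays stood above all 6 WT arrays, with no overlap. Over all probe sets, 10% had no overlap between the 6 WT and the 6 IPT arrays in either direction. GS2 was 1.51-fold higher in watered IPT than in watered WT (log2 difference 0.59, SE 0.11, 3 arrays against 3, limma adjusted p = 0.00105). Under stress it was 1.46-fold higher (0.54, SE 0.11, limma adjusted p = 0.00178). Both differences passed in each fit that left out 1 array, with log2 values from 0.58 to 0.62 when watered and from 0.48 to 0.59 under stress. They also passed when the 3' minus 5' value of each array was a covariate in the fit (0.53 and 0.62). Quantile normalization gave 0.58 when watered and 0.38 under stress, and both passed.

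No difference of GS2 between water supplies passed in these fits. The log2 difference of stressed minus watered was 0.10 in WT, with a 95% interval from -0.13 to 0.33, and 0.05 in IPT, with an interval from -0.18 to 0.28. In WT the value depended on the processing: it was 0.30 under quantile normalization (SE 0.11, limma adjusted p = 0.0947) and -0.12 with the poly-A covariate (SE 0.23). In IPT these settings gave 0.10 and -0.03. The stress effect in IPT minus that in WT was -0.05 (interval from -0.37 to 0.27), and -0.20 under quantile normalization. The summed level of the 7 leaf photosynthesis markers moved with genotype as well. It is the log2 of their added unlogged signals, so the brightest probe sets weigh most. On the log2 scale, watered WT arrays had 13.81 to 13.88 and stressed WT arrays 13.57 to 13.66. Watered IPT arrays had 14.15 to 14.19 and stressed IPT arrays 14.15 to 14.22. Of the 7 markers, 3 were higher and 0 lower in watered IPT than in watered WT, and 6 were higher and 0 lower under stress. Of all probe sets, 13.8% and 16.7% passed in these comparisons. Among the markers, 1 was lower under stress in WT, 0 passed under stress in IPT and 1 passed for the difference of the stress effects. Of all probe sets, 11.3%, 1.36% and 1.9% passed there. Their part in the GS2 difference was not tested. In whole-leaf RNA, fewer cells of a type and less RNA per cell cannot be told apart.

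AMT1-2 is an ammonium transporter gene of the AMT1 family, whose members carry ammonium across the plasma membrane. Its probe set lay below the array median on all 12 arrays, so background may be a large share of its signal. Its log2 values were 2.47, 2.48 and 3.27 in watered WT and 2.51, 2.65 and 2.15 in stressed WT. They were 1.98, 2.42 and 2.03 in watered IPT and 2.22, 2.26 and 2.14 in stressed IPT. The 3 watered IPT arrays lay below the 3 watered WT arrays, by as little as 0.05 between the nearest values. Of all probe sets, 31.5% had no overlap between these groups. Watered WT replicate 3 stood apart from its group.

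The AMT1-2 difference between watered genotypes was -0.60 (SE 0.19, 3 arrays against 3) with a limma adjusted p of 0.0526, and so did not pass. It passed with each array centred on its median (-0.65, adjusted p = 0.0379), with quantile normalization, with array weights and with a trended robust variance. It also passed without watered WT replicate 1 or 2 or without watered IPT replicate 2, and it shrank to -0.33 (adjusted p = 0.245) without watered WT replicate 3. Under stress the genotypes differed by -0.23 (interval from -0.64 to 0.19). Stress gave -0.30 (SE 0.19) in WT and 0.07 in IPT, neither of which passed.

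ADC, arginine decarboxylase, makes agmatine from arginine, the first step of 1 of the routes to putrescine. Its level was lower in IPT leaves than in WT leaves. The log2 values were 5.03, 4.76 and 5.20 in watered WT and 4.80, 4.79 and 4.83 in stressed WT. They were 4.59, 4.35 and 4.40 in watered IPT and 4.49, 4.09 and 4.22 in stressed IPT. Every IPT array lay below every WT array, the reverse of GS2, where 10% of all probe sets had no overlap in either direction.

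ADC was 1.46-fold lower in watered IPT than in watered WT (log2 difference -0.55, SE 0.14, limma adjusted p = 0.0128, 3 arrays against 3). Under stress it was 1.45-fold lower (-0.54, SE 0.14, adjusted p = 0.0120). The watered difference did not pass without watered WT replicate 3 (-0.44, adjusted p = 0.0687), watered IPT replicate 2 (-0.50, 0.0539) or watered IPT replicate 3 (-0.52, just above the threshold). The stressed one did not pass without stressed IPT replicate 2 (-0.45, 0.0650) or with the poly-A covariate (-0.51, 0.0739). Averaged over both water supplies, a comparison added after the values were seen, ADC was -0.54 relative to WT (SE 0.10, adjusted p = 0.000526) and passed in all 12 fits that left out 1 array. Stress shifted ADC by -0.19 in WT and -0.18 in IPT, with intervals from -0.48 to 0.10 and from -0.47 to 0.11.

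ODC, ornithine decarboxylase, opens the other route to putrescine. Its log2 values were 4.30, 3.98 and 4.36 in watered WT and 4.45, 4.73 and 4.25 in stressed WT. They were 4.23, 4.26 and 4.58 in watered IPT and 4.62, 4.73 and 4.44 in stressed IPT. The groups overlapped in every comparison. ODC differed between genotypes by 0.14 when watered (interval from -0.18 to 0.46) and by 0.12 under stress (from -0.20 to 0.44). Stress gave 0.27 (SE 0.15, adjusted p = 0.297) in WT and 0.24 (SE 0.15, adjusted p = 0.521) in IPT. Averaged over both genotypes its stress difference was 0.25 (SE 0.11), with an unadjusted limma p of 0.0316 and an adjusted p of 0.153. With the poly-A covariate these stress values were -0.40 in WT, -0.00 in IPT and -0.20 on average. ADC and ODC thus had different records between genotypes, ADC passing in both comparisons and ODC in neither. The difference between these 2 genes was not itself tested.

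The symbol adc1 is one commonly given to arginine decarboxylase genes, but the annotation used here carries no titles, so its function is not read from the files. It is a separate gene from ADC in that annotation. Its 4 probe sets are called 1, 1a, 2 and 3 below, by the number in their names on the array and by the letter a that the second carries. Probe sets 1 and 1a are annotated to the same sequence record, and 2 and 3 to a record each. In the naming of Affymetrix, the letter a marks a probe set whose probes match several transcripts of a gene.

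Probe set 1 of adc1 had the widest range of the 8 probe sets over the 12 arrays, 1.98 log2 units. Its values were 5.90, 5.81 and 5.28 in watered WT and 4.82, 4.97 and 5.28 in stressed WT. They were 5.13, 4.60 and 4.67 in watered IPT and 4.52, 4.21 and 3.91 in stressed IPT. The group means fell in the order watered WT (5.66), stressed WT (5.03), watered IPT (4.80) and stressed IPT (4.21). The 2 middle groups overlapped, and so did watered and stressed WT, at their nearest arrays.

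Probe set 1 was lower in IPT by 1.82-fold when watered (log2 -0.86, SE 0.20, 3 arrays against 3, limma adjusted p = 0.00655) and by 1.76-fold under stress (-0.81, SE 0.20, adjusted p = 0.00785). Both calls held whichever single array was dropped, and the poly-A covariate left them at -0.81 and -0.89. Stress lowered it 1.56-fold in WT (-0.64, SE 0.20, adjusted p = 0.0459). That call was lost without watered WT replicate 1 (-0.52, adjusted p = 0.160) or 2 (-0.56, 0.144), without stressed WT replicate 1 (-0.53, 0.144) or 2 (-0.61, 0.125). The poly-A covariate ended it too, with a larger error (-0.44, SE 0.46, adjusted p = 0.816). So did quantile normalization (-0.61, 0.0535), array weights (-0.68, 0.0514) and a fit on only the arrays compared (-0.64, 0.0655). In IPT the stress difference was of like size, -0.59 (SE 0.20), and did not pass (adjusted p = 0.173). Averaged over both genotypes, a comparison added after the values were seen, it was -0.61 (SE 0.14, adjusted p = 0.00916) and passed without any 1 of the 12 arrays. With the poly-A covariate that average was -0.48 (SE 0.32, adjusted p = 0.670), and the part of labelling in it was not tested further.

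Probe set 1a of adc1 gave 5.26, 5.36 and 5.23 in watered WT and 5.12, 5.85 and 5.42 in stressed WT. It gave 5.12, 5.20 and 5.12 in watered IPT and 4.84, 4.76 and 4.76 in stressed IPT. The stressed IPT arrays lay below all others, and stressed WT spread most, from 5.12 to 5.85. How many of all probe sets set 1 group below all others in this way was not counted. It was 1.60-fold lower in stressed IPT than in stressed WT (-0.68, SE 0.15, limma adjusted p = 0.00395), a call that held without any 1 array and was lost with the poly-A covariate (-0.46, adjusted p = 0.0827). Without stressed WT replicate 2, the array with the largest 3' minus 5' difference, the value was -0.48 and passed. Between watered plants the difference was -0.14 (SE 0.15) and did not pass. The stress effect was 0.18 in WT and -0.36 in IPT. The difference of these effects was -0.54 (SE 0.21), with an unadjusted limma p of 0.0204 and an adjusted p of 0.243, so that a genotype-dependent stress response was not established.

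Probe set 2 of adc1 ranged in WT from 3.97 to 4.86 when watered and from 3.85 to 4.59 under stress. In IPT it ranged from 4.15 to 4.39 and from 4.06 to 4.22. No comparison of it passed, and its genotype differences were -0.26 (interval from -0.71 to 0.18) and -0.15 (from -0.60 to 0.29). Its stress differences were -0.20 in WT and -0.09 in IPT. Probe set 3 lay below the array median on all 12 arrays, from 2.21 to 3.26. It passed in no comparison, with genotype differences of -0.21 when watered and 0.27 under stress. In WT its stress difference was -0.50 (SE 0.20, limma adjusted p = 0.131), which passed only without watered WT replicate 3 (-0.76, adjusted p = 0.0174). Its stress difference in IPT was -0.02.

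**Figure D2:**
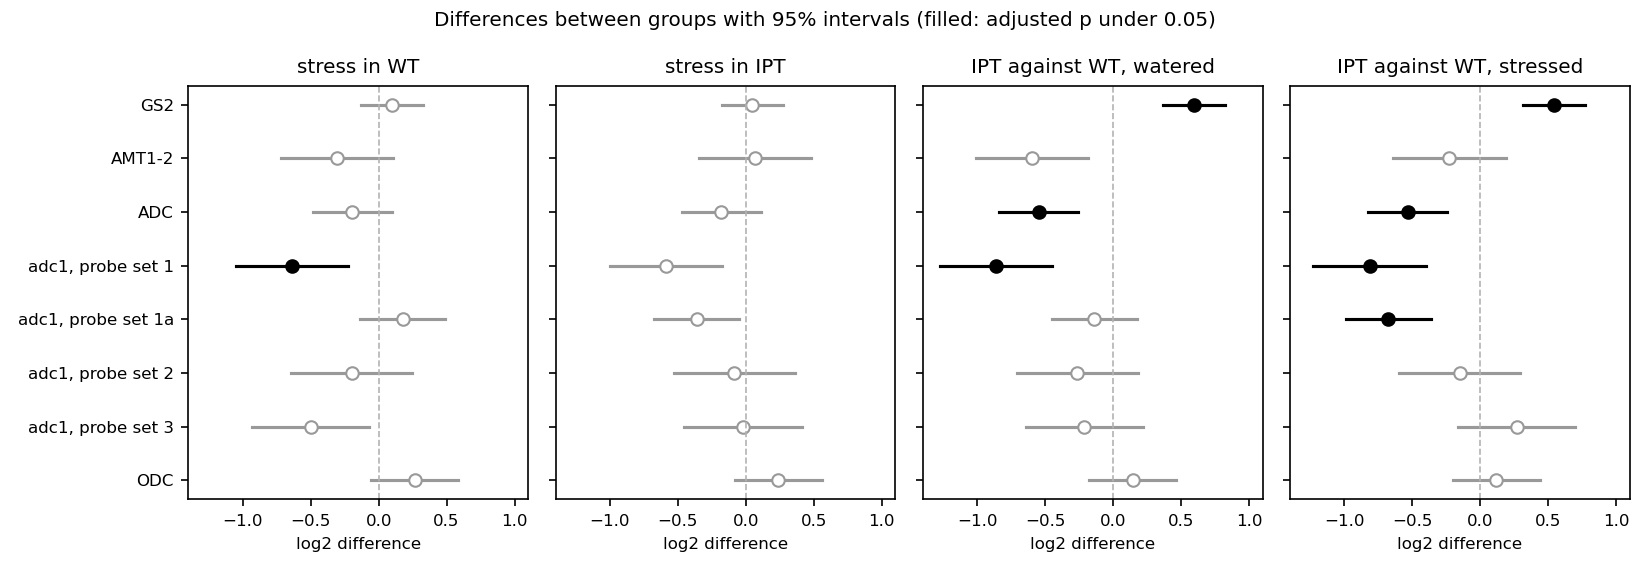
Each panel is 1 comparison, with the log2 difference on the horizontal axis and the 8 probe sets on the vertical axis. Points are limma estimates, lines their 95% intervals, and filled points have an adjusted p under 0.05; GS2 lies right of 0 and ADC and probe set 1 of adc1 left of 0 in both comparisons of IPT with WT.

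Counted together, 3 of the 8 probe sets passed between watered genotypes, 1 higher and 2 lower in IPT, where 13.8% of all probe sets passed. Between stressed genotypes 4 passed, 1 higher and 3 lower, where 16.7% of all did. The groups did not overlap for 5 of the 8 when watered and for 4 under stress, where 31.5% and 30% of all probe sets had no overlap. Stress called 1 of 8 in WT, where 11.3% of all passed, and 0 of 8 in IPT, where 1.36% passed. At an unadjusted limma p under 0.05 it called 2 of the 8, where 14.2% of all probe sets did. The difference of the stress effects called 0 of 8, with 1.9% of all passing, and 1 of the 8 at an unadjusted p under 0.05, where 14.2% of all did. The counts under stress in either genotype are thus near the share of all probe sets. Averaged over water supplies, 5 of 8 passed between genotypes, where 22.5% of all did: GS2 higher, and ADC, probe sets 1 and 1a of adc1 and AMT1-2 lower. AMT1-2 was barely past the threshold there (-0.41, SE 0.14, adjusted p = 0.0404) and passed in only 4 of the 12 fits that left out 1 array, not without watered WT replicate 3, for example (-0.28, adjusted p = 0.0902). Averaged over genotypes, 1 of 8 passed for water supply, against 11.7% of all. The median log2 difference of the 8 was -0.24 when watered and -0.19 under stress between genotypes, beside 0.02 and -0.01 for all probe sets. The 8 are not independent, since 4 belong to adc1 and probe sets 1 and 1a to the same record. They were also chosen with earlier results of these data known.

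Whether the 4 probe sets of adc1 moved differently was asked directly. No test of it passed, but the adjusted values cannot decide the question. For each of the 6 pairs, the difference between both probe sets on the same array was compared between groups, in 36 exact two-sided permutation tests. Probe set 1 dropped relative to probe set 2 by 0.63 log2 units from WT to IPT arrays (mean difference 0.93 in WT and 0.30 in IPT, exact permutation p = 0.005 over 12 arrays). A p of 0.005 is the smallest that permuting genotype within each water supply can give, and adjusted over the 36 tests it stands at 0.09, so it did not pass. The 36 include the tests of 3 arrays against 3, whose least possible p of 0.1 could never pass. Adjusting over these as well made a pass harder for the tests over 12 arrays, so like movement is not read from it. The mean difference to probe set 3 was 2.65 in WT and 1.79 in IPT. Probe set 3 lay below the array median on all 12 arrays and was not shown to be above background, so nothing is read from differences against it. Relative to probe set 1a, annotated to the same record, the change from WT to IPT was smaller, and the difference of 1a minus 1 grew by 0.43 (exact permutation p = 0.065, adjusted p = 0.252).

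By water supply, the difference of 1a minus 1 grew by 0.52 from watered to stressed arrays (exact permutation p = 0.03, adjusted p = 0.252), and that of 1 minus 2 shrank, by -0.47 (exact permutation p = 0.015, adjusted p = 0.18). The smallest p of any comparison of 3 arrays with 3 was 0.1, which is the least that design allows. Watered WT replicate 3 held the lowest value of its group for 4 of 4 adc1 probe sets and the highest for GS2, AMT1-2, ADC and ODC. Over all probe sets that array was the highest of its group for 34.8% and the lowest for 31.9%.

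**Figure D3:**
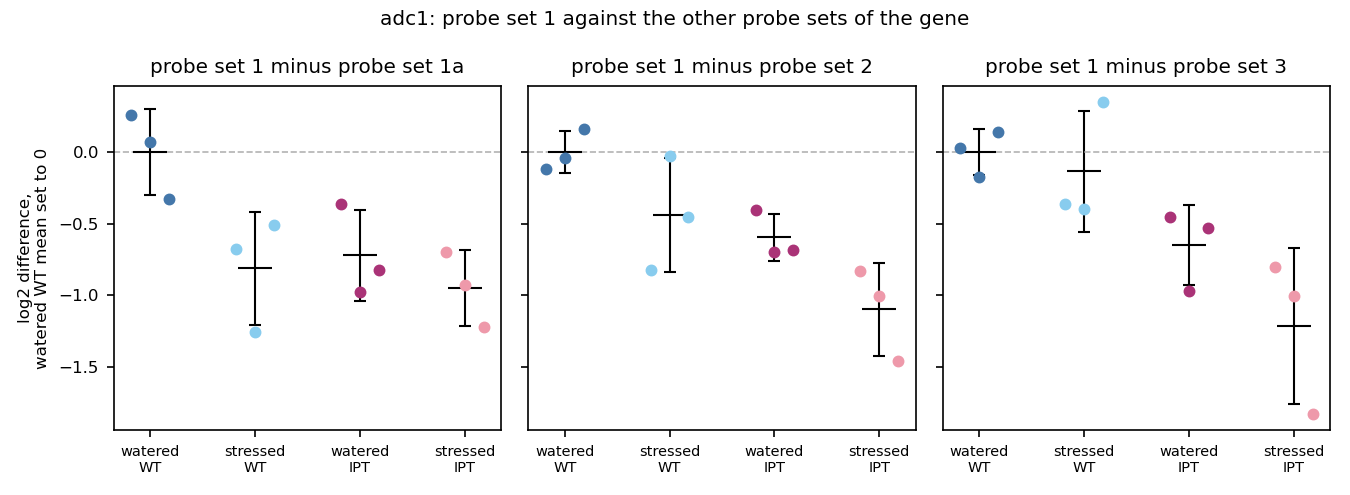
The panels plot, for each array, the log2 value of adc1 probe set 1 minus that of probe set 1a, 2 or 3, with the mean of watered WT set to 0. Points are arrays by group, and bars and whiskers are means and SDs of 3 arrays. The differences to probe set 2 are lower on the IPT than on the WT arrays of the same water supply. That change did not pass after adjustment over 36 tests. These included tests that could never pass, so the adjusted value cannot decide it. Probe set 3 lies below the array medians.

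Other genes around these steps were taken from lists of symbols for nitrogen assimilation, polyamine synthesis, arginine and S-adenosylmethionine, and glutamate and its products. The arginine genes on them were arginases, which split arginine, so its synthesis was not covered. They add 18 probe sets of 13 symbols and none for later steps of polyamine synthesis. Of the 18, 3 were higher and 3 lower in watered IPT than in watered WT, 1 higher and 4 lower between stressed genotypes, 3 higher and 0 lower under stress in WT, and 0 passed under stress in IPT. The difference of the stress effects called 0 of 18. Of all probe sets, 13.8% passed between watered genotypes, 16.7% between stressed genotypes, 11.3% under stress in WT, 1.36% under stress in IPT and 1.9% for the difference of the stress effects.

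SAM1, a synthetase of S-adenosylmethionine, the compound whose decarboxylated form donates aminopropyl groups to polyamines and which also feeds ethylene synthesis, was lower in IPT. It read 9.77, 9.60 and 9.63 in watered WT and 10.39, 10.49 and 9.73 in stressed WT, against 8.78, 8.82 and 8.89 in watered IPT and 8.90, 8.93 and 9.01 in stressed IPT. The difference was -0.84 (SE 0.16, limma adjusted p = 0.00163) when watered and -1.25 (SE 0.16, adjusted p = 2.76e-05) under stress. SAM1 had no overlap in either, where 31.5% and 30% of all probe sets had none. Its stress rise in WT (0.53, SE 0.16, adjusted p = 0.0400) passed only without stressed WT replicate 3 when the 6 WT arrays were dropped in turn, and turned to -0.15 with the poly-A covariate. It was also lost with median-centred arrays (0.49, adjusted p = 0.0596), with the replicate block (0.0528) and on only the arrays compared (0.123). SAM3, of the same enzyme family, did not pass (-0.28 when watered and 0.01 under stress).

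ARG1, an arginase, splits arginine into ornithine and urea and so competes with arginine decarboxylase for arginine. Its values were 4.91, 4.84 and 4.93 in watered WT and 5.57, 5.67 and 5.73 in stressed WT, a rise of 0.76 (SE 0.14, limma adjusted p = 0.00188). In IPT they were 4.21, 4.79 and 4.36 when watered and 4.48, 4.65 and 4.56 under stress. Stressed IPT was 2.13-fold below stressed WT (-1.09, SE 0.14, adjusted p = 2.66e-05), with no overlap between the arrays, as for 30% of all probe sets. The watered difference (-0.44, adjusted p = 0.0437) passed only without watered IPT replicate 2 among the 6 fits that left out 1 array, and not with the poly-A covariate. With that covariate the stress difference in WT was 1.01 with a larger error (SE 0.31) and did not pass (adjusted p = 0.241). The stress effect in IPT minus that in WT was -0.65 (SE 0.19, adjusted p = 0.109), so a difference between genotypes in the response of ARG1 to stress did not pass. The 3 probe sets of ARG2, another arginase, passed in no comparison between pairs of groups.

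Among the genes for glutamate and its products, GABA-TP2 was higher in IPT when watered (0.55, SE 0.13, limma adjusted p = 0.00906) and under stress (0.59, SE 0.13, adjusted p = 0.00426). GABA-TP2 lay between 2.90 and 3.24 on the WT arrays, below the array medians, so background may be a large share of its signal there. GABA-TP3 was higher when watered (0.87, SE 0.16, adjusted p = 0.00108) and at 0.36 (adjusted p = 0.142) under stress. Both code for GABA transaminases, which break down the amino acid made by glutamate decarboxylase. GABA-TP1, of the same family, rose under stress in WT (0.73, SE 0.14, adjusted p = 0.00355), but not past the threshold with the poly-A covariate (0.19, adjusted p = 0.885). Between stressed genotypes it was lower in IPT (-0.44, adjusted p = 0.0441), a call that remained in only 1 of the 6 fits without 1 array, that without stressed WT replicate 3. It was lost with a trended robust variance (adjusted p = 0.0515), with the replicate block (0.0508), on only the arrays compared (0.0892) and with the poly-A covariate (-0.25, 0.394). The glutamate decarboxylase gene gad2 lay between 2.13 and 3.38 and did not pass.

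PRO2 was lower in IPT, at -0.76 (SE 0.16, limma adjusted p = 0.00339) when watered and -1.04 (SE 0.16, adjusted p = 0.000172) under stress. The symbol is used for an enzyme of proline synthesis from glutamate in tomato, but no title was at hand. The symbol PRO1 covers 2 different gene records, neither of which passed. The gene gdh1, glutamate dehydrogenase, which can release ammonium from glutamate, differed by 0.17 and -0.22 between genotypes and did not pass. Its stress difference was larger in WT, 0.45 (SE 0.16, limma adjusted p = 0.0817), and 0.07 in IPT, and neither passed. Of 2 probe sets of gts1, 1 was higher in watered IPT (0.64, SE 0.17, adjusted p = 0.0169), with its other one at -0.15. That call was lost without watered WT replicate 1 (0.54, adjusted p = 0.0803), without watered IPT replicate 1 (0.64, 0.0558) or 3 (0.53, 0.0903). It was also lost under the poly-A covariate (0.55, 0.0845). The called probe set read 2.54, 2.86 and 2.84 in watered WT, below the array medians, so background may be a large share of its signal.

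**Figure D4:**
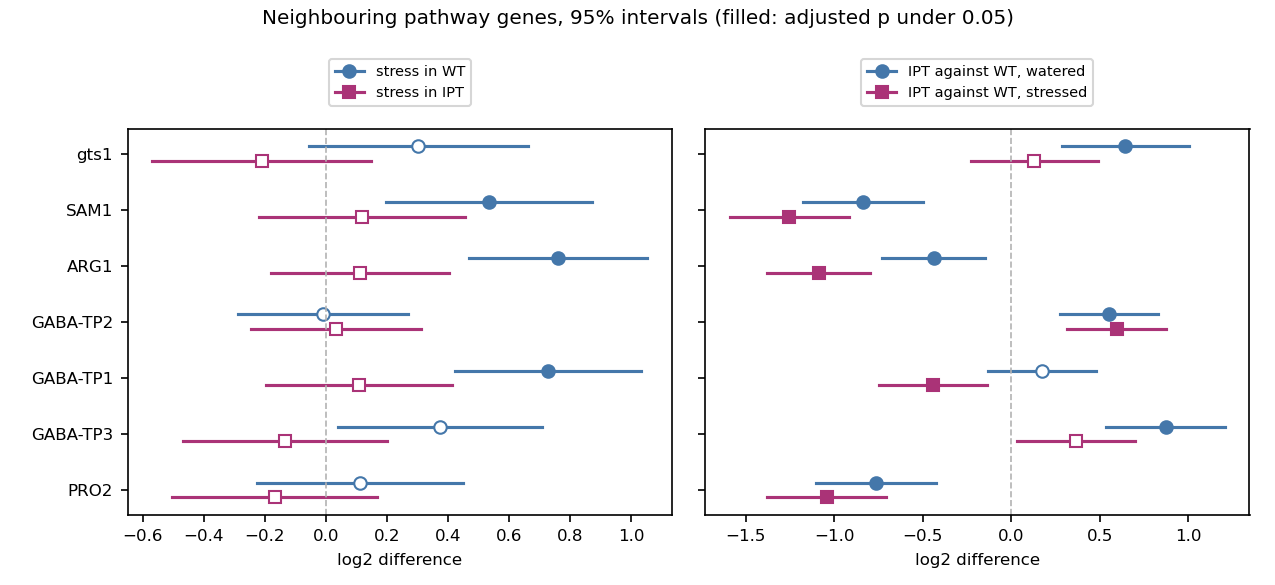
For the 7 list genes that passed in at least 1 comparison, the log2 difference (horizontal axis) is given for stress in each genotype (left) and for IPT against WT in each water supply (right). Points are limma estimates, lines 95% intervals, and filled points have an adjusted p under 0.05; SAM1, ARG1 and PRO2 lie left of 0 and GABA-TP2 right of 0 in both comparisons on the right.

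Named genes with the most similar course over the 12 arrays were found by the root-mean-square difference of log2 values after each probe set was centred on its own mean, among 901 other named probe sets. For GS2, whose own values varied by 0.293 about their mean, these were LOC543895 (0.0929), NMP1 (0.102) and rem-2 (0.116). LOC543895 lay below the array medians in every group, with WT means of 2.16 watered and 2.31 stressed, and IPT means of 2.81 and 2.89. For ADC (own variation 0.316) they were Hsp90-1, a chaperone (0.152), PSY2, a phytoene synthase (0.187), and mdh, a malate dehydrogenase (0.189). For probe set 1 of adc1 (own variation 0.571) the nearest were a probe set of BMY3 (0.305), SPS, sucrose-phosphate synthase (0.311), and CAT2, a catalase (0.368), so its match was looser. Probe set 1a of adc1 (0.293) lay nearest to LOC543815 (0.157), DHAR1 (0.164) and AREB1 (0.168). None of these genes was nearest to more than 1 of the 4 probe sets, and likeness here is a description of 12 arrays in 4 groups.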

How the data were processed

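Per the submitters' processing notes, the authors processed the arrays with RMA, whose version and settings the sources used here do not give. The deposited values, between 1.28 and 13.84, fit a log2 scale. Per the labels' protocols, Trizol-extracted total RNA (6 ug) was turned into biotinylated cRNA. Detection calls were not used here, and the number of arrays limits the precision.

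Of 10209 probe sets, 108 controls were left out and 10101 tested without a filter. The tomato annotation, of 2007, gave 1 symbol to 909 probe sets and none to 9192. Members and lists were chosen with earlier results of these data known. In limma 3.58.1 (R 4.3.3), each of the 4 groups had its own mean in a single fit (8 residual and 7.99 prior degrees of freedom), with two-sided tests and Benjamini-Hochberg adjustment; errors are moderated SEs. Contrasts averaged over a factor were added after the values were seen. Named beyond the members are list genes, and, for each member probe set that passed a planned comparison, the 3 named probe sets of most similar course. The fit was repeated with median-centred arrays, with quantile normalization, on the brighter part of the probe sets, with array weights, with a trended robust variance, on only the arrays compared, with the replicate number as a block, with the mean 3' minus 5' difference of 8 pairs of poly-A controls as a covariate, and without each array. The fit was tested on simulated data. The p-values measure the spread between samples labelled as biological replicates.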

Additional observations from a re-analysis of the deposited data

How the results depend on the processing

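The 8 probe sets rested most on settings where stress was compared. For stress in WT, the count of 1 became 0 under quantile normalization, array weights, a fit on only the arrays compared, and the poly-A covariate, and ranged from 0 to 2 without single arrays. Between stressed genotypes the count of 4 became 2 with the covariate (3 to 4 without single arrays), and for water supply averaged over genotypes the count of 1 became 0. Between watered genotypes it ranged from 2 to 4 without single arrays. With the covariate the sign turned for stress in WT in GS2 (-0.12), adc1 probe sets 1a (-0.41) and 2 (0.69), ODC (-0.40) and SAM1 (-0.15), for stress in IPT in GS2 (-0.033), adc1 probe set 2 (0.23), ODC (-0.000493) and AMT1-2 (-0.051), for watered genotypes in ODC (-0.039), for the difference of the stress effects in GS2 (0.092) and for averaged water supply in ODC (-0.20); the cause was not tested. Of these, only SAM1 had passed before. Member differences of the stress effects and averaged contrasts were checked for such turns only where their unadjusted p was low, GS2 excepted. List genes were checked only where called. Without single arrays, stress in WT ranged from -0.017 to 0.35 for probe set 1a and from -0.47 to 0.031 for probe set 2, and stress in IPT from -0.18 to 0.083 for probe set 3 and from -0.016 to 0.20 for AMT1-2. Over all probe sets, the 1142 calls for stress in WT became 694 on only the arrays compared and 33 with the covariate. The 137 for stress in IPT became 254 with array weights, 228 with a trended robust variance and 46 with the covariate. Leaving out 1 array gave 748 to 1142 calls for stress in WT and 54 to 125 for stress in IPT. The 192 for the difference of the stress effects became 300 among the brighter probe sets, 332 with a trended robust variance and 98 with the covariate, and the 1180 for averaged water supply became 12 with the covariate. The covariate did not overlap between the groups, so labelling and group cannot be told apart in the lower counts found with it. Same-numbered arrays of different groups had deviations that correlated between -0.19 and 0.07, and differently numbered ones between -0.12 and 0.20. No shared effect of the replicate number was thus seen. With the replicate block, the member counts stayed at 1, 0, 3 and 4 for stress in WT, stress in IPT, watered and stressed genotypes, and the averaged genotype count of 5 became 4 as AMT1-2 no longer passed (adjusted p = 0.0560). Among the list genes it ended the calls of SAM1 for stress in WT (0.0528) and of GABA-TP1 between stressed genotypes (0.0508). The brighter probe sets leave out AMT1-2 and probe set 3 of adc1, and among the called list genes GABA-TP2 and gts1, whose low signal limits what can be read from them.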
